A study of Homo sapiens with 6 samples.

Results

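The genes described here are 10 genes of hormonal calcium control, listed by name: PTHLH, PTH1R, CASR, CALCA, CALCB, STC1, STC2, VDR, CYP24A1 and CYP27B1. All 10 had a row among the 19899 genes of the deposited table. They were examined because SCCOHT, the ovarian tumour type to which the study assigns COV434 cells, is named for the hypercalcemia that accompanies it. COV434 is an established human ovarian cell line. Parental COV434 cells of both groups were co-transfected with a puromycin resistance plasmid (pBABE-puro) and with either a control plasmid (Control, n = 3) or PBJ5-BRG1 (BRG1, n = 3). The study's methods name pCMV-neo or pCDNA3-neo as control plasmids without saying which was used here. SMARCA4 encodes BRG1, which powers chromatin remodeling by SWI/SNF complexes through ATP hydrolysis. Cells received 2 to 3 µg/ml puromycin from 24 hours after transfection and were collected after 3 days of selection for RNA-seq. Both groups therefore carry the resistance plasmid and the drug, the control and BRG1 plasmids have different names and not only different inserts, and a single cell line was used.

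Blood calcium is set by a few hormones. Parathyroid hormone and its relative PTHrP, encoded by PTHLH, act on the shared receptor PTH1R to release calcium from bone and to retain it in the kidney, and PTHrP secreted by tumours is a well-known cause of hypercalcemia in cancer. The calcium-sensing receptor CASR restrains parathyroid hormone release, and calcitonin, a product of CALCA, opposes bone resorption. Calcitriol, the active form of vitamin D, is made by CYP27B1, acts through the nuclear receptor VDR and is broken down by CYP24A1, which is itself a classical target of VDR.

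BRG1 reexpression was accompanied by rises of VDR and CYP24A1, of the vitamin D arm, and of STC1, and no change was detectable in PTHLH. VDR rose 24-fold, CYP24A1 rose 96.9-fold and STC1 rose 3.74-fold, whereas PTHLH and CYP27B1 stayed within the spread between replicates. PTH1R had few counts, and CASR, CALCA, CALCB and STC2 were at or near 0 in every sample. DESeq2 gave an adjusted p, corrected over 16002 genes, to 7 of the 10 members and called 3 higher and 0 lower at an adjusted p under 0.05. Among all genes tested 11% were called higher and 1.84% lower. No member was lower (0 members) at an unadjusted p under 0.05 by DESeq2 or edgeR. Over all genes 884 of 19899 were lower by DESeq2 and 869 of 14246 by edgeR at this threshold. The members are too few for a count of 0 to set them apart from all genes. edgeR, which tested 5 of the members, called the same 3 higher and 0 lower, beside 9.57% and 1.02% of the genes it tested. Replicate numbers paired the samples, and DESeq2 fitted with replicate as a block again called 3 members higher and 0 lower, beside 13.4% and 6.61% of all genes.

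**Figure D1:**
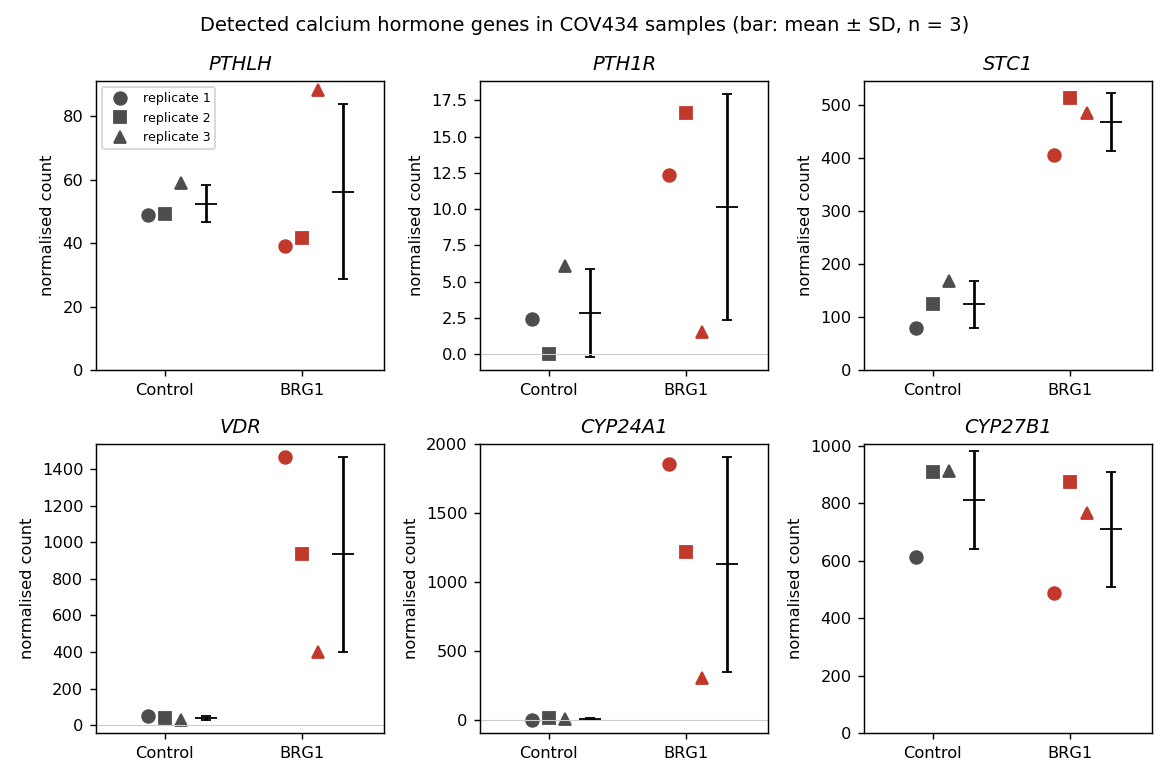
Normalised counts (vertical axis, linear) of the 6 members above the detection floor in each Control and BRG1 sample, with the marker shape giving the replicate number and the bar the mean ± SD (n = 3). VDR, CYP24A1 and STC1 are higher in every BRG1 sample than in any Control sample, while the groups overlap for PTHLH, PTH1R and CYP27B1.

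The samples held 29699741 to 63613710 estimated counts, and BRG1 replicate 3 was the shallowest. Mitochondrial genes took 5.18 to 6% of the counts in Control and 4.13 to 4.61% in BRG1 samples, without overlap. SMARCA4, the transfected gene, had 1439, 1676 and 1538 normalised counts in Control and 108700, 79070 and 78590 in BRG1 replicates 1 to 3, plasmid transcripts included. SMARCA2, the gene of the alternative ATPase, stayed low in both groups (16.4 ± 10.9 and 24.05 ± 15.9 normalised counts; SD, n = 3). Of 6 granulosa cell markers 2, FOXL2 and FSHR, held 3 rounded counts or fewer in every sample. The summed level of the list ran from 400 to 532 normalised counts in Control and from 948 to 2060 in BRG1 samples; CYP19A1 and INHBA rose (13.6-fold and 7.68-fold), and AMH and INHA were not called (DESeq2 adjusted p 0.373 and 0.923). The sums of 3 leukocyte markers (339 to 670 and 374 to 745, CD3E at the floor) and of 4 markers of calcitonin-secreting C cells (324 to 514 and 327 to 488, CALCA at the floor) overlapped between the groups. Most of the leukocyte sum was PTPRC (DESeq2 adjusted p 0.977), while LYZ rose from 0 to 2.44 normalised counts in Control to 13.8 to 22.4 in BRG1 samples (DESeq2 adjusted p 0.00261, edgeR adjusted p 0.00938). Summed levels of 3 keratinocyte markers ran from 12.9 to 22 normalised counts in Control and from 428 to 2590 in BRG1 samples; KRT5 and KRT14 rose and TP63 did not pass the test (DESeq2 adjusted p 0.942). Summed levels of 3 endothelial markers ran from 25.6 to 91.6 in Control and from 3350 to 3940 in BRG1 samples, with VWF and CDH5 called higher and PECAM1 not called (DESeq2 adjusted p 0.817). The part of these marker changes, and of the mitochondrial share, in those of the calcium genes was not tested. Because RNA was taken from whole cultures, a change in every cell and a change in some of the cells cannot be told apart.

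The gene of the ligand PTHrP, PTHLH, was examined first. Its part in the hypercalcemia of this tumour type was not tested. PTHLH lies on chromosome 12 from 27958084 to 27972733 on the minus strand (hg38, GENCODE release 44). Its normalised counts were 48.7, 49.3 and 59.1 in Control replicates 1 to 3, and 39.2, 41.5 and 88.1 in BRG1 replicates 1 to 3. Replicates 1 and 2 of BRG1 lay below all Control samples and replicate 3 lay above them, so the groups overlapped. The log2 fold change was 0.08 ± 0.45 (SE; DESeq2 adjusted p 0.964), and the 95% interval of the fold ran from 0.574 to 1.94. Without BRG1 replicate 3 the log2 fold change was -0.38 (DESeq2 adjusted p 0.668). Between 40.5 and 78.4 estimated counts per library lay behind these values. Another annotated gene covers 10.4% of its exonic bases, and since the libraries do not keep strand their reads cannot be told apart there.

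AP-1, the dimeric transcription factor that the study links to BRG1, was searched for in the members' promoters. By the study's account its dimers are built from proteins of the FOS, JUN, ATF and MAF families. The 250 bases before the RefSeq start of PTHLH are shown for this reason (chr12:27969977-27970226, minus strand, GRCh38.p14, 5′ to 3′, RefSeq). The letters TGANTCA, which read the same on both strands, would stand in capitals and did not occur in this window. The window lies within the gene as annotated by GENCODE, whose upstream end is at 27972733. Bases before that end were not searched, so the result holds for this start only.
PTHLH: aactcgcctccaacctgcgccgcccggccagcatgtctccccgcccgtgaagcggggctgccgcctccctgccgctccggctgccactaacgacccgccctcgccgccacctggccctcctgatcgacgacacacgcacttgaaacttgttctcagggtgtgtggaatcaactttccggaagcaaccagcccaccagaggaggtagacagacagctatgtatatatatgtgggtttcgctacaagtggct

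RefSeq windows were at hand for 5 of the 10 members, with 6 windows in all since PTH1R has a pair of starts. The AP-1 letters occurred in 1 of the 6, beginning 27 bases before the upstream start of PTH1R. The same letters occurred in 6.57% of 35116 RefSeq windows of 250 bases. CALCB, STC1, VDR, CYP24A1 and CYP27B1 had no entry, so none of the members called higher was searched. The study's own promoter search, on epithelial genes in another cell line, used motif models over a different window. It also found AP-1 motifs at distal sites, which were not searched here.

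Receptors for the peptide hormones were then compared. PTH1R, the receptor of both parathyroid hormone and PTHrP (chromosome 3, 46877721 to 46903799), had 2.44, 0 and 6.06 normalised counts in Control and 12.3, 16.6 and 1.49 in BRG1 replicates 1 to 3. BRG1 replicates 1 and 2 lay above every Control sample, but replicate 3 lay within the Control range. The log2 fold change of 1.81 had an error of 1.37 (SE) and did not pass the test (DESeq2 adjusted p 0.541), and the 95% interval of the fold ran from 0.544 to 22.6. edgeR left the gene out for its low counts. CASR, the calcium-sensing receptor (chromosome 3, 122183668 to 122291629), was at 0 in all 6 samples. A count of 0 allows up to 3 counts, or 0.0472 to 0.101 CPM (counts scaled to library size) depending on the library, which covers counting error only.

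Of the remaining peptide genes, CALCA, CALCB and STC2 were at or near 0. CALCA, which encodes calcitonin and a calcitonin gene-related peptide, held 0 to 1.35 estimated counts in Control and 1.09 to 2.16 in BRG1 samples. CALCB, which encodes the related peptide and resembles CALCA in sequence, held 1.05 to 2.12 and 2.11 to 3.17. STC2, a stanniocalcin, held 0.996 counts in BRG1 replicate 1 and 0 in every other sample. All of these were at or under the floor of 3 rounded counts per library in both groups, so no fold is given for them.

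STC1 encodes stanniocalcin 1, a secreted glycoprotein first known as a calcium-lowering hormone of fish, and was the peptide gene that rose. The gene occupies chromosome 8, 23841929 to 23854806, minus strand. Its normalised counts were 79.2, 125.5 and 168.8 in Control replicates 1 to 3 and 406.9, 513.3 and 485.1 in BRG1 replicates 1 to 3. Every BRG1 sample exceeded every Control sample by more than the range within either group. The log2 fold change was 1.90 ± 0.30 (SE; DESeq2 adjusted p 9.3e-09, edgeR adjusted p 0.00521). Within replicate numbers 1 to 3 the fold was 5.14, 4.09 and 2.87. Its relative STC2 was too low to be compared with it.

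VDR, the gene of the vitamin D receptor, was higher in all BRG1 samples. The gene occupies chromosome 12, 47841537 to 47943048, minus strand. It had 49.95, 37.5 and 30.3 normalised counts in Control and 1467, 936.1 and 401.5 in BRG1 replicates 1 to 3. The lowest BRG1 sample was well above the highest Control sample, and BRG1 samples differed among themselves more than Control samples did. The log2 fold change was 4.58 ± 0.45 (SE; DESeq2 adjusted p 1.4e-22, edgeR adjusted p 9.7e-04), and the 95% interval of the fold ran from 13.0 to 44.2. Among the 1764 genes called higher VDR ranked 221 by p-value and 544 by fold change.

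CYP24A1, the mitochondrial hydroxylase that inactivates calcitriol, had the largest fold change of the 10 members. The gene occupies chromosome 20, 54153446 to 54173986, minus strand. Normalised counts were 6.09, 19.9 and 9.09 in Control and 1858, 1221 and 307.5 in BRG1 replicates 1 to 3. All BRG1 samples lay far above the Control samples, and replicate 3 was again the lowest of its group. The log2 fold change was 6.60 ± 0.85 (SE; DESeq2 adjusted p 4.1e-13, edgeR adjusted p 0.00132), and the 95% interval of the fold ran from 30.4 to 308. The size of the fold rests on low Control counts and on BRG1 samples that differ widely. The log2 fold change was 7.19 without Control replicate 2 and 6.05 without BRG1 replicate 1. CYP24A1 ranked 206 by fold change among the genes called higher.

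CYP27B1, the hydroxylase that makes calcitriol, was well expressed in both groups and was not called. The gene lies on chromosome 12 from 57762334 to 57768986 on the minus strand. Its normalised counts were 614.0, 909.9 and 911.6 in Control and 486.7, 874.7 and 767.2 in BRG1 replicates 1 to 3. Replicate 1 was the lowest of its group in both groups, and the groups overlapped. The log2 fold change of -0.20 ± 0.28 (SE) did not pass the test (DESeq2 adjusted p 0.816), and the 95% interval of the fold, from 0.596 to 1.28, leaves out a doubling. Within replicate numbers 1 to 3 the fold was 0.793, 0.961 and 0.842, below 1 in each, and with the replicate block the gene was still not called (DESeq2 adjusted p 0.402).

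**Figure D2:**
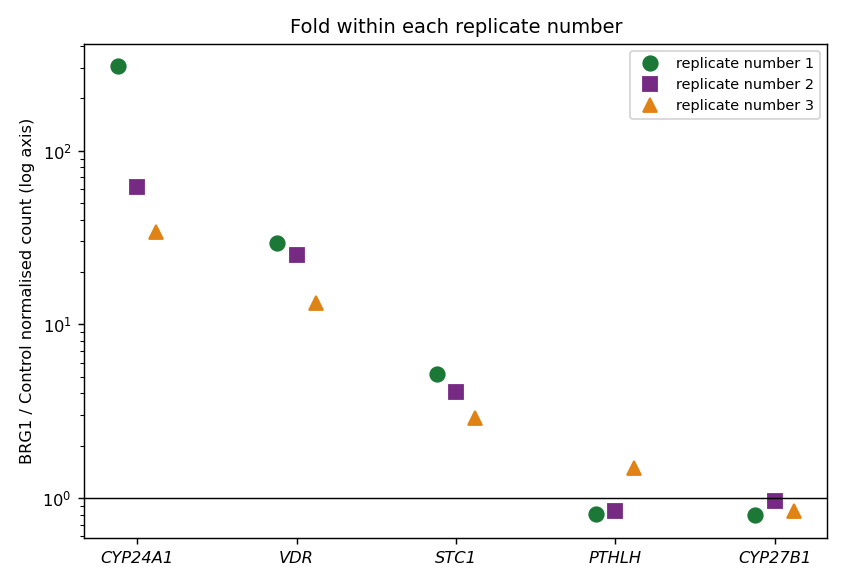
Ratio of the BRG1 to the Control normalised count within each replicate number (log axis, 1 marks no difference) for the 5 members with enough counts. CYP24A1 and VDR lie far above 1 for all numbers, at 305, 61.3 and 33.8 and at 29.4, 24.9 and 13.3 for numbers 1 to 3, STC1 lies between 2.87 and 5.14, and PTHLH and CYP27B1 lie near 1.

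The paired view of the same samples gave the folds of CYP24A1 as 305, 61.3 and 33.8, and those of VDR as 29.4, 24.9 and 13.3, for replicate numbers 1 to 3. Both genes, and STC1, had their smallest fold in replicate number 3. SMARCA4, plasmid transcripts included, was highest in BRG1 replicate 1 (108700 normalised counts), as were VDR and CYP24A1, and was 79070 in replicate 2 and 78590 in replicate 3; its part in these differences was not tested. For PTHLH the folds were 0.804, 0.843 and 1.49, and replicate number 3 was the exception there as well. With both samples numbered 3 left out, a choice made after the values were seen, the log2 fold changes were 4.78 for VDR and 2.17 for STC1 and remained called (DESeq2 adjusted p 3.7e-41 and 2.2e-08).

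Levels of different genes were compared per length, as CPM divided by the length in kilobases of the canonical transcript in GENCODE release 44. In Control the order was CYP27B1 (7.31 ± 1.49), PTHLH (0.713 ± 0.0827), STC1 (0.687 ± 0.247), VDR (0.183 ± 0.0474) and CYP24A1 (0.0759 ± 0.0444; SD, n = 3). PTHLH and STC1 did not differ beyond their spread, while CYP27B1 stood apart above them. In BRG1 samples the order was CYP24A1 (7.55 ± 5.12), CYP27B1 (6.63 ± 1.94), VDR (4.44 ± 2.46), STC1 (2.68 ± 0.352) and PTHLH (0.793 ± 0.407; SD, n = 3). CYP24A1, CYP27B1 and VDR overlapped there. The per-length ratio of CYP24A1 to CYP27B1, the breakdown to the synthesis enzyme of calcitriol, was formed after the values were seen. It was 0.00776, 0.0156 and 0.00699 in Control and 2.76, 1.01 and 0.290 in BRG1 replicates 1 to 3, so the ranges lay far apart. This gap restates the rise of CYP24A1 beside CYP27B1, which was not called, and concerns RNA only. The Control ratios rest on 5.39 to 16.7 estimated counts of CYP24A1 per library.

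**Figure D3:**
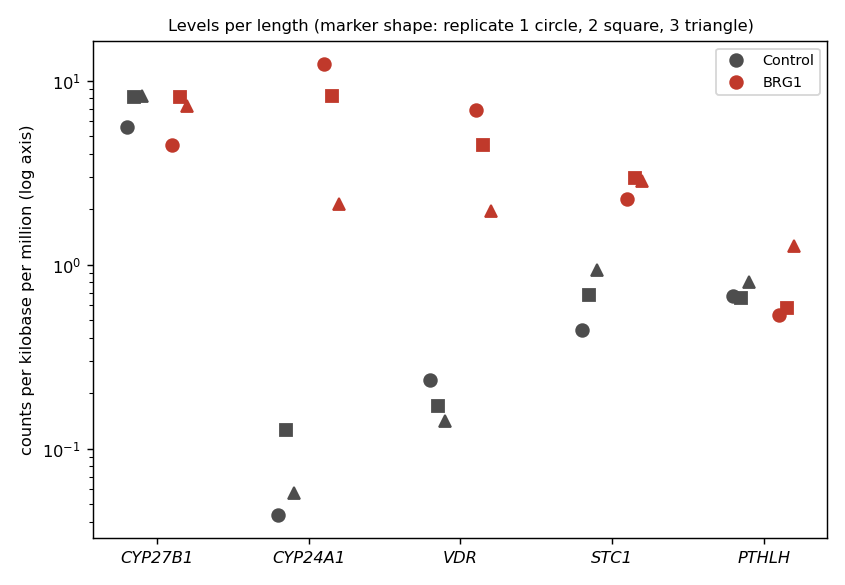
Level per length (CPM per kilobase, log axis) of 5 members in each sample, Control in grey and BRG1 in red, with the marker shape giving the replicate number. CYP24A1 moves from the lowest level in Control, 0.0759 on average, to that of CYP27B1 in BRG1 samples, 7.55 against 6.63, and VDR and STC1 also move up while CYP27B1 and PTHLH overlap between the groups.

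Which genes followed the members most closely was described by the Pearson correlation of variance-stabilised values over the 6 samples, among 11685 or 11686 genes with a mean of at least 100 normalised counts. These points share libraries, and for the called members they form separate Control and BRG1 clusters, so the values rank genes and carry no test. Closest to VDR were TAGLN2, RAI14 and KRT8 (r of 0.9992, 0.9988 and 0.9987), whose own log2 fold changes were 2.5, 2.5 and 5.2. Closest to CYP24A1 were SEMA7A, CXCR4 and GLIPR2 (0.9991, 0.9987 and 0.9987), with log2 fold changes of 4.13, 3.44 and 0.78. STC1 was followed by FAM111A, SLC22A5 and RAB8A (0.9953, 0.9918 and 0.9915), which had smaller log2 fold changes of 0.53, 0.33 and 0.21. PTHLH was followed by HDGF, MST1 and DNAJC22 (0.9883, 0.9834 and 0.9758), with log2 fold changes of 0.03, 0.07 and 0.05.

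Other genes of calcium control were read from 4 lists. Over all genes tested DESeq2 called 11% higher and 1.84% lower, and edgeR 9.57% and 1.02%. At an unadjusted p under 0.05, 2420 of 19899 genes were higher and 884 lower by DESeq2. By edgeR 2065 and 869 of 14246 were. The lists hold few genes, so a count of 0 at this threshold does not set a list apart from all genes. Among 13 ligands and receptors of the parathyroid hormone and calcitonin families, 7 had an adjusted p and DESeq2 called 0 in either direction, with 0 at an unadjusted p under 0.05; edgeR tested 5 of them with the same result. PTH itself and the receptor partners RAMP1, RAMP2 and RAMP3 were at 0 in every sample. CALCRL, the receptor shared by calcitonin gene-related peptide and adrenomedullin, was present, with a log2 fold change of -0.51 that did not pass the test (DESeq2 adjusted p 0.449). The calcitonin receptor gene CALCR was at 1.03 on the same scale (DESeq2 adjusted p 0.365).

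Among 11 genes of vitamin D synthesis, transport and receptor partnership, 8 had an adjusted p. DESeq2 called 1 of these lower and 0 higher, beside 1.84% and 11% of all genes tested. The gene called was DHCR7, the reductase that turns the vitamin D precursor into cholesterol. It fell from 5247 ± 616 to 3483 ± 401 normalised counts (SD, n = 3; log2 fold change -0.59, DESeq2 adjusted p 0.00357, edgeR adjusted p 0.0259), and the call was lost without BRG1 replicate 2 (DESeq2 adjusted p 0.0621). The retinoid X receptors RXRA and RXRB, the dimer partners of VDR, had log2 fold changes of -0.05 and -0.13 (DESeq2 adjusted p 0.912 and 0.799). CYP2R1, the liver-type hydroxylase of vitamin D, was at -0.02 on the same scale (DESeq2 adjusted p 0.980). Of the list's genes called higher there were 0 by edgeR and 0 at an unadjusted p under 0.05.

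Among 10 genes of calcium transport in epithelia, 7 had an adjusted p. DESeq2 called 1 of these higher and 0 lower, beside 11% and 1.84% of all genes tested. ATP2B4, a calcium pump of the plasma membrane, rose from 2954 ± 351 to 6501 ± 1590 normalised counts (SD, n = 3; log2 fold change 1.14, DESeq2 adjusted p 4.2e-06, edgeR adjusted p 0.00536). Its Control values were 2612, 2936 and 3314, and its BRG1 values 8161, 6349 and 4994, with no overlap. The intestinal calcium channel gene TRPV6 and the calcium-binding protein gene S100G stayed low or absent. TRPV6 held 0, 1.17 and 1.51 normalised counts in Control and 0.725, 5.82 and 7.46 in BRG1 replicates 1 to 3. Its log2 fold change of 2.28 did not pass the test (DESeq2 adjusted p 0.535), and S100G was at 0 throughout. CALB1, another calcium-binding protein gene of this list, was detected, with means of 33.65 in Control and 51.59 in BRG1 samples. It was not called (log2 fold change 0.64, DESeq2 adjusted p 0.536). At an unadjusted p under 0.05, 1 gene was lower by DESeq2 and by edgeR, the pump gene ATP2B2 (log2 fold change -1.47, DESeq2 adjusted p 0.176).

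Among 9 genes of phosphate and bone hormones, 7 had an adjusted p. DESeq2 called 2 of these higher and 0 lower, beside 11% and 1.84% of all genes tested. At an unadjusted p under 0.05, 0 were lower by DESeq2 or edgeR. TNFRSF11B, which encodes the bone-protecting decoy receptor osteoprotegerin, had 82.8, 114.9 and 112.8 normalised counts in Control and 343.8, 384.6 and 206.0 in BRG1 replicates 1 to 3. The groups did not overlap, and the log2 fold change was 1.59 (DESeq2 adjusted p 7.1e-06, edgeR adjusted p 0.0119). FGFR1, a receptor used by the phosphate hormone FGF23, rose from 1934 ± 135 to 4980 ± 1720 normalised counts (SD, n = 3; log2 fold change 1.37, DESeq2 adjusted p 3.7e-06, edgeR adjusted p 0.00707). FGF23 itself was at the floor in both groups, and KL, of the same list, had few counts and was not called (DESeq2 adjusted p 0.816). TNFSF11, the gene of the osteoclast factor RANKL, had few counts and did not pass the test (log2 fold change -0.32, DESeq2 adjusted p 0.944). SPP1, the gene of the bone matrix protein osteopontin, was not called (log2 fold change 0.48, DESeq2 adjusted p 0.113), but was called with the replicate block (DESeq2 adjusted p 0.00541, edgeR adjusted p 0.0199). The median log2 fold change over the 7 members with an adjusted p was 1.81, the value of PTH1R itself, which had few counts and was not called. These 7 include CALCB, at the floor in both groups, and 3 of them were called. Medians over the tested genes of these lists, in the order given, were 0.18, -0.04, 0.24 and 0.66, beside -0.01 over all genes tested. The 0.66 of the last list was the value of KL, which was not called.

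**Figure D4:**
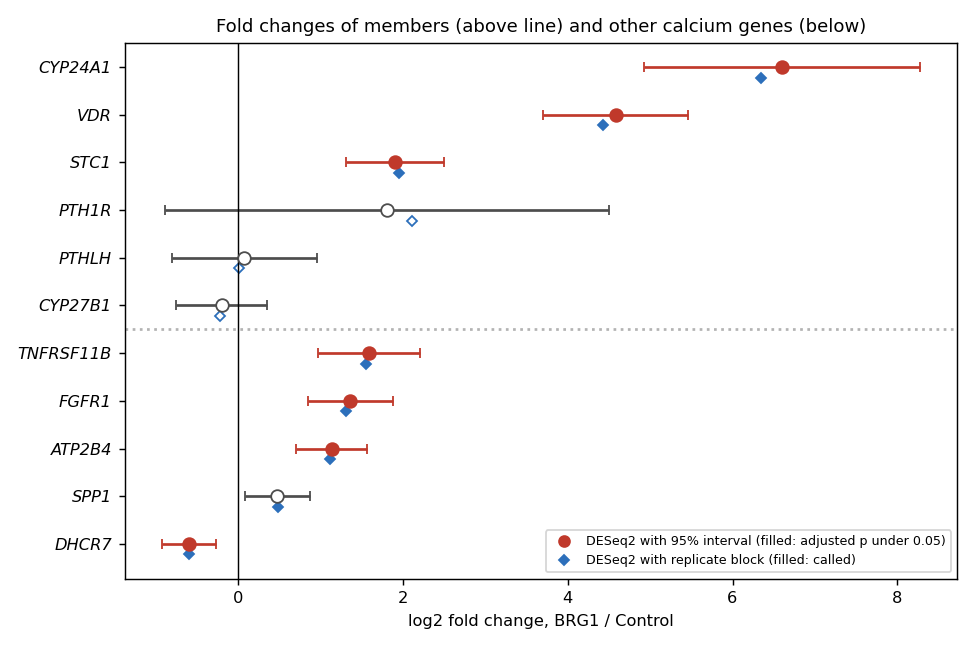
Log2 fold change of BRG1 over Control with its 95% interval from DESeq2 (circles, filled where called) and from the fit with the replicate block (diamonds, filled where called) for the 6 members above the floor and 5 other calcium genes. CYP24A1 at 6.60, VDR at 4.58 and STC1 at 1.90 lie right of 0 with their intervals, PTH1R, PTHLH and CYP27B1 span 0, and SPP1 is filled by the replicate block alone.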

How the data were processed

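RNA from 6 COV434 samples was sequenced without strand as 78 base read pairs. The authors aligned reads with STAR (2.5.3a) to hg38 with GENCODE annotation, quantified transcripts with salmon (0.8.2) and used tximport for gene totals. Estimated counts were deposited, scaled by transcript length and library size (lengthScaledTPM). They are not divided by library size, and reads shared by similar genes are split by salmon's model.

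Estimated counts were rounded and tested over all 19899 genes with the Wald test of DESeq2 (1.42.0, R 4.3.3), BRG1 against Control, with median-ratio size factors, independent filtering and Benjamini-Hochberg adjustment. The edgeR (4.0.16) quasi-likelihood test and limma-voom (3.58.1) were alternatives. In a self-test with known changes the share of false calls was above the 0.05 threshold for DESeq2 and smaller for edgeR, so edgeR values stand beside the calls. A group at 3 rounded counts or fewer in every library was at the floor. Intervals of a fold are Wald intervals from the DESeq2 standard error. The study's methods call the replicates of another cell line biological and describe COV434 as transfected in the same way; the labels give only a replicate number, so p-values measure the spread between these samples. Samples with the same replicate number deviated together from their group means (r = 0.522, 0.524 and 0.614 across 11686 genes), so the numbers were taken to pair the samples.

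Other settings were TMM factors, a filter of 10 counts in 3 samples, no independent filtering, a threshold of 0.01, the replicate block and leaving out each sample. All 10 members were described, with the called genes of 4 lists and the 3 most similar genes for PTHLH and each called member. The AP-1 letters were searched in promoters because the study concerns AP-1. Other genes named from the lists, SPP1 among them, were chosen after their values were seen. The members and lists were chosen with earlier results of these data known. Gene positions come from GENCODE release 44, a later release than the authors used.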

Additional observations from a re-analysis of the deposited data

How the results depend on the processing

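VDR, CYP24A1 and STC1 were called higher in all 15 alternatives, the replicate block included, with log2 fold changes of 4.11 to 4.96, 6.05 to 7.19 and 1.66 to 2.19 and largest adjusted p-values of 0.0054, 0.0155 and 0.00523. PTHLH, PTH1R and CYP27B1 were called in none of the alternatives that tested them. The sign of PTHLH (0.08) turned with limma-voom (-0.11), with both samples numbered 3 left out (-0.28), a setting chosen after seeing the data, and without BRG1 replicate 3, and ran from -0.38 to 0.29 when a sample was left out. That of CYP27B1 (-0.20) turned without BRG1 replicate 1 and ran from -0.38 to 0.02. PTH1R ran from 1.25 to 3.58 and was not tested by edgeR, limma-voom or with the count filter.

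Lower calls over all genes (294) depended on the setting. The replicate block gave 1035 in DESeq2 and 809 in edgeR, edgeR alone 146, limma-voom 169 and a threshold of 0.01 gave 130. Leaving out a sample gave 116 to 596, the extremes belonging to BRG1 replicates 2 and 3. The 1 vitamin D gene called lower, DHCR7, ran from 0 to 1 such calls. Counts of members and of the other lists stayed within 1.5 times, and the block changed no call among the members, and among the other genes named those of SPP1 and SLC22A5, a gene similar to STC1 (DESeq2 adjusted p 0.0663 without and 0.0438 with the block). The cause of these shifts was not tested. Depth limits CASR, STC2, CALCA and CALCB, at 3 rounded counts or fewer in every library, and PTH1R, with at most 19.7 estimated counts.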
